A study of Homo sapiens with 3 samples.

Results

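The genes of the epidermal growth factor receptor (EGFR) family system were followed on 3 expression arrays of HaCaT cells, a spontaneously immortalised line of human keratinocytes. The set held 10 genes, taken by name from the annotation of the array files: the ligand genes HBEGF, AREG, EREG, TGFA, BTC and NRG1, the receptor genes EGFR, ERBB2 and ERBB3, and the gene of the receptor inhibitor ERRFI1. They were read by 30 of 45033 transcripts and made up 10 of 23595 genes with a name. The cells had been given ATRA (all-trans retinoic acid, a vitamin A derivative that acts through nuclear receptors) together with nicotinamide (ATRA+NIC), ATRA alone at 1 µM, or neither (control), for 36 h. The title of the series places the work in the field of epidermal barrier function. Each group was 1 array of 1 cell line, the labels used here state no nicotinamide dose, and no array held cells given nicotinamide alone.

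ErbB receptors are tyrosine kinases of the cell surface that act in pairs. EGFR binds EGF, TGF-alpha, amphiregulin, epiregulin, betacellulin and HB-EGF. ERBB3 binds neuregulins and signals mainly through a partner such as ERBB2, which has no known ligand of its own. The ligands are made as membrane-bound precursors and are released by metalloproteinases. In keratinocytes several of them act back on the cell that makes them and serve growth, migration and wound closure. ERRFI1, also called MIG6, is induced by receptor signalling and blocks the kinase domain of the receptors.

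The promoters of the genes that were highest on the ATRA array in relation to control are shown first, since these genes moved together on the arrays. The sequences are those of RefSeq on GRCh38.p14. Each line holds the 120 bases before the annotated start of the gene, 5′ to 3′ on the strand of the gene, and capitals mark the motifs found. HBEGF lies on the minus strand (chr5:140346604-140346723), AREG and EREG on the plus strand (chr4:74445016-74445135 and chr4:74365025-74365144) and ERRFI1 on the minus strand (chr1:8026310-8026429).
HBEGF: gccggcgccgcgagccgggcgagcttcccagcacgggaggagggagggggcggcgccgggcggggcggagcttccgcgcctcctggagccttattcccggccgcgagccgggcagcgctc
AREG: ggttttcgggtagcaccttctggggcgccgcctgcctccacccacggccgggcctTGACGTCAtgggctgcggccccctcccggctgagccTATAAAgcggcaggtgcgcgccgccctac
EREG: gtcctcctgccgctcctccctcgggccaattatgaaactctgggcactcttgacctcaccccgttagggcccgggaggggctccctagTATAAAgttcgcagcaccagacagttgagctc
ERRFI1: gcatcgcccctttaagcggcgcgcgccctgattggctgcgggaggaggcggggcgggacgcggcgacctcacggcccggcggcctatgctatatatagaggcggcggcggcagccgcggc

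The 250 bases before each start were searched on both strands for the AP-1 motif TGANTCA, the cyclic AMP response element TGACGTCA, the EGR motifs GCGTGGGCG and GCGGGGGCG, the CArG box and the TATA motif TATAAA. The AREG promoter held the cyclic AMP response element at bases -65 to -58, a palindrome that reads alike on both strands, and a TATA motif at -29 to -24. The EREG promoter held a TATA motif at -32 to -27, and the HBEGF and ERRFI1 promoters held none of these motifs in this window. Only these exact letters were searched for, and the stretch tatatata in the ERRFI1 line is no match to TATAAA. Of 35116 promoters of the same length in the table, 1.65% held the cyclic AMP response element, 10.7% the TATA motif, 6.57% the AP-1 motif, 5.37% an EGR motif and 1.16% a CArG box. The guanine and cytosine share of the 120 bases shown was 80.8% in HBEGF, 71.7% in AREG, 60% in EREG and 74.2% in ERRFI1. The table gave promoters for 8 of the 10 genes. Among the genes that differed less, an AP-1 match was found in ERBB2 at -222 to -216, and in 1 of 2 windows of EGFR at -232 to -226 and -136 to -130. That EGFR window also held the TATA motif, and the windows of TGFA and BTC held none of the motifs. A match describes letters only and is not a measured binding site.

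The values are intensities on a linear scale, deposited by the authors as RMA calls (robust multi-array average), and the level of a gene is the mean of the log2 intensities of its transcripts. An intensity given for a gene is that mean turned back to the linear scale. The arrays were close in overall brightness, with median transcript intensities of 298, 302 and 302 on the ATRA+NIC, ATRA and control arrays, and random probes lay between 18.4 and 19.6. Levels of different genes are not set against each other, since probes differ in brightness. Single arrays leave nothing to test the groups with, their number limits the precision, and a difference was described when it reached 2-fold. The scatter that could be measured was that between transcripts of the same gene, which holds both technical error and true differences between isoforms. These differences had a pooled SD of 0.31 for ATRA minus control, 0.30 for ATRA+NIC minus ATRA and 0.24 for ATRA+NIC minus control, on the log2 scale. This SD was taken around the mean of each gene and holds no spread between cultures. A gene difference above or below it is therefore a matter of size only. In such bulk samples fewer cells of a type and less RNA per cell cannot be told apart.

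All 12 keratinocyte marker genes listed passed the filter on dim genes, a gene level that reached the overall median, an intensity of 246.5, on at least 1 array, while 5 of 21 markers of leukocytes, fibroblasts, melanocytes and endothelial cells did. The 12 keratinocyte markers summed to intensities of 118153 with ATRA+NIC, 139620 with ATRA and 162516 in control cells. They did not move alike: 6 were higher and 6 lower with ATRA than in control cells, and 2 higher and 10 lower with ATRA+NIC than in control cells. KRT5 read 10009 with ATRA+NIC, 10041 with ATRA and 29746 in control cells, 2.96-fold lower with ATRA than in control cells. LAMB3 read 18022, 30070 and 16295 on the same arrays. The summed intensity of the 6 leukocyte markers was 2824 with ATRA+NIC, 4504 with ATRA and 2336 in control cells, most of it CD68, at 2339, 3399 and 1774. CD3E, a T cell gene that passed the filter, read 70.6 with ATRA+NIC, 501 with ATRA and 251 in control cells, 7.09-fold lower with ATRA+NIC than with ATRA. PTPRC, which defines leukocytes, had an intensity of 18.5 with ATRA+NIC, 151 with ATRA and 33.7 in control cells. The 5 endothelial markers summed to 3370, 2649 and 329.6 on the same arrays, of which CDH5 alone gave 3263, 2534 and 209. Fibroblast markers summed to 505, 486 and 480.4, and melanocyte markers to 422, 336 and 281. The part of these cell types in the results below was not tested. Of the 10 ErbB genes 9 passed the filter, and BTC did not. Of all 23595 genes 12467 passed it.

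**Figure D1:**
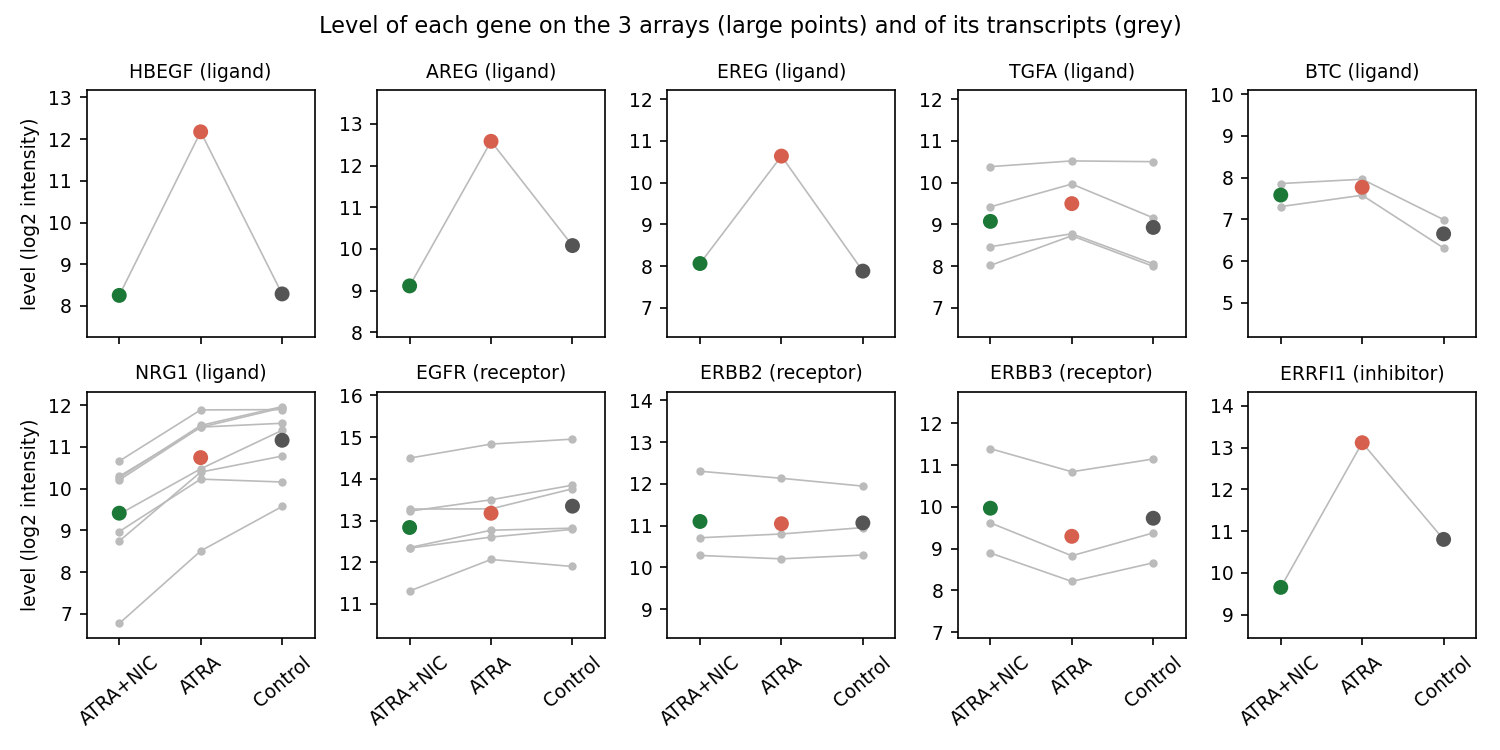
Level of each gene as log2 intensity (vertical axis, 1 panel per gene with its own range) on the ATRA+NIC, ATRA and control arrays (horizontal axis); large points are gene levels, grey points and lines its transcripts, and there is 1 array per group. HBEGF, AREG, EREG and ERRFI1 stood highest on the ATRA array, NRG1 was lowest on the ATRA+NIC array, and ERBB2 was nearly level.

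HBEGF, AREG and EREG, the genes of the ligands HB-EGF, amphiregulin and epiregulin, were much higher on the ATRA array than on either of the others. HBEGF, whose product binds heparan sulphate as well as EGFR, had an intensity of 305 with ATRA+NIC, 4618 with ATRA and 313 in control cells. The ATRA array alone was high, and ATRA+NIC minus control was -0.04 on the log2 scale, less than the pooled scatter between transcripts. HBEGF was 14.8-fold higher with ATRA than in control cells, the difference in position 9 from the top among 12467 genes passing the filter. It was 15.1-fold lower with ATRA+NIC than with ATRA, position 13 from the bottom.

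EREG, which encodes a ligand of EGFR and ERBB4, read 267 with ATRA+NIC, 1591 with ATRA and 236 in control cells. It was 6.75-fold higher with ATRA than in control cells and 5.95-fold lower with ATRA+NIC than with ATRA. As with HBEGF, the ATRA array stood alone, and ATRA+NIC exceeded control by 0.18 on the log2 scale, within the scatter between transcripts.

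AREG, whose product is a weaker ligand of EGFR made in quantity by keratinocytes, read 555 with ATRA+NIC, 6124 with ATRA and 1084 in control cells. It was 5.65-fold higher with ATRA than in control cells and 11.04-fold lower with ATRA+NIC than with ATRA. AREG thereby differed from HBEGF and EREG in where the ATRA+NIC array lay: it was below control by 1.95-fold, just short of the 2-fold rule. HBEGF, EREG and AREG were each read by a single transcript, so no scatter between their own transcripts could be measured.

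A near copy of AREG gave a further reading. The file annotation holds a gene model, LOC653193, described there as similar to the amphiregulin precursor and placed on chromosome 4 at 75695399 to 75709504 of the hg18 build. The current RefSeq table holds no gene of its number and lists AREGB among the synonyms of AREG. Its intensity was 515 with ATRA+NIC, 4983 with ATRA and 866 in control cells. It was 5.76-fold higher with ATRA than in control cells, 9.67-fold lower with ATRA+NIC than with ATRA, and 1.68-fold lower with ATRA+NIC than in control cells. Probes for AREG and for this model may bind the same RNA, so the amphiregulin reading is uncertain as to its source locus, and the model is no independent gene beside AREG.

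TGFA, the gene of transforming growth factor alpha, stood at 537 with ATRA+NIC, 722 with ATRA and 486 in control cells. It was 1.49-fold higher with ATRA than in control cells and 1.34-fold lower with ATRA+NIC than with ATRA. Its 4 transcripts did not move alike. Of these, 3 were higher with ATRA than in control cells by 0.72 to 0.81 on the log2 scale, while the remaining one, BC005308, differed by 0.02 and had intensities of 1334 with ATRA+NIC, 1468 with ATRA and 1449 in control cells.

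BTC, the gene of betacellulin, a ligand of EGFR and ERBB4, was dim and under the filter on every array. It read 192 with ATRA+NIC, 218 with ATRA and 101 in control cells. Here both treated arrays were above control, by 1.90-fold with ATRA+NIC and 2.17-fold with ATRA, and they differed from each other by 1.14-fold. Its pair of transcripts gave differences of 0.97 and 1.26 for ATRA minus control and of 0.87 and 0.99 for ATRA+NIC minus control, on the log2 scale. BTC thus lacked the closeness of ATRA+NIC and control that HBEGF and EREG had.

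**Figure D2:**
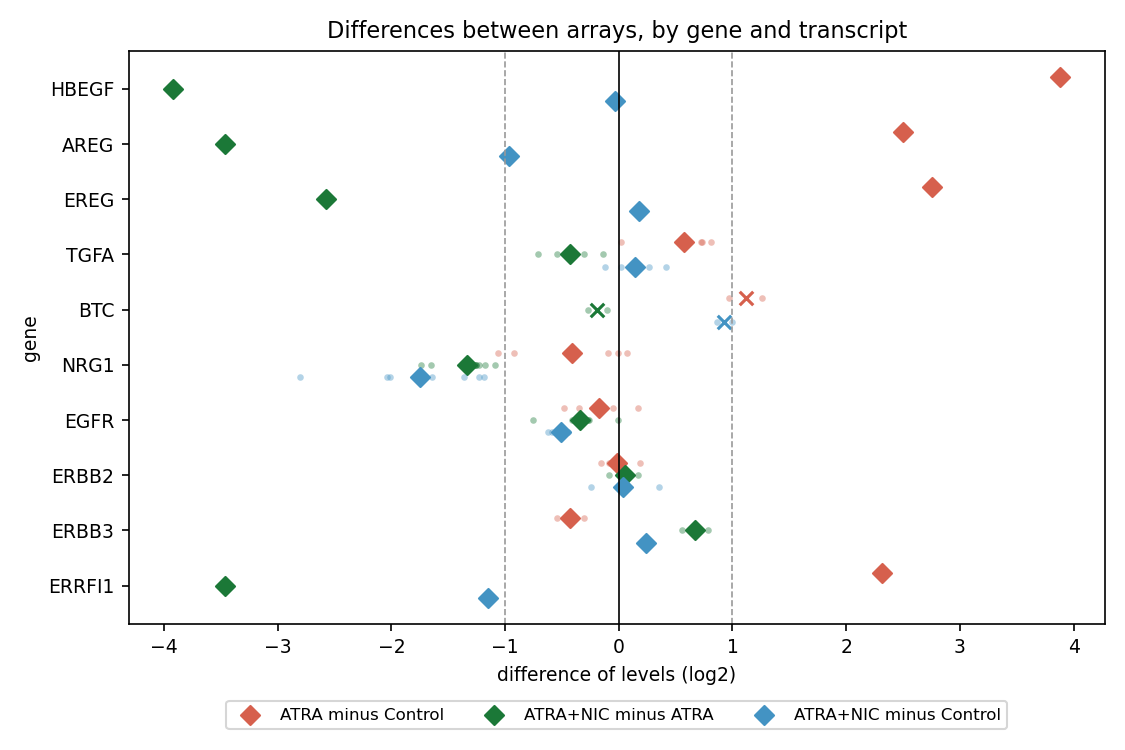
Differences of levels on the log2 scale (horizontal axis) for each gene (vertical axis) in the 3 comparisons (colours); diamonds are gene values, crosses mark BTC, which was under the filter, small points are transcripts and dashed lines mark 2-fold. The 4 genes HBEGF, AREG, EREG and ERRFI1 lie far to the right for ATRA minus control, and they and NRG1 lie left of the 2-fold line for ATRA+NIC minus ATRA. The comparisons share arrays.

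NRG1, which encodes the neuregulin 1 ligands of ERBB3 and ERBB4, followed another order of arrays. Its intensity was 680 with ATRA+NIC, 1713 with ATRA and 2284 in control cells. ATRA+NIC was the low array, 2.52-fold below ATRA and 3.36-fold below control, and the difference between ATRA and control was 1.33-fold. Among 12467 genes the ATRA+NIC minus control difference of NRG1 was in position 21 from the bottom, further out than that of any other ErbB gene passing the filter.

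The 8 NRG1 transcripts differ in their starts and ends, and all 8 were at least 2-fold lower with ATRA+NIC than with ATRA, with differences of -1.74 to -1.09 on the log2 scale. All 8 were also at least 2-fold lower with ATRA+NIC than in control cells, at -2.80 to -1.19, and 1 was with ATRA against control. Of 24335 transcripts that reached an intensity of 246.5 on at least 1 array, 4.15% were at least 2-fold lower with ATRA+NIC than with ATRA, 1.28% with ATRA+NIC than in control cells and 2.38% with ATRA than in control cells. These transcripts share exons, so they are repeated readings of 1 gene rather than separate ones. NM_004495, the gamma form, ends first and gave the greatest differences, with intensities of 109 with ATRA+NIC, 363 with ATRA and 760.4 in control cells. NM_013959, the sensory and motor neuron-derived form with a start of its own, read 669 with ATRA+NIC, 1421 with ATRA and 2695 in control cells.

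With ATRA against control the NRG1 transcripts spread widely, with an SD of 0.41 on the log2 scale. NM_004495 differed by -1.07 and NM_013959 by -0.92, whereas NM_013964 differed by -0.01 and NM_013956 by 0.07. The gene value of -0.42 for ATRA minus control was of the same size as this spread.

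None of the receptor genes reached 2-fold in any of the 3 comparisons. Few of all genes passing the filter did, 3.83%, 1.35% and 1.03% higher and 2.06%, 3.74% and 0.971% lower, so this holds for most genes. EGFR read 7294 with ATRA+NIC, 9239 with ATRA and 10393 in control cells. The ATRA+NIC array was 1.27-fold below ATRA and 1.42-fold below control. All 6 transcripts were lower with ATRA+NIC than in control cells, within the narrow range of -0.62 to -0.45 on the log2 scale. That difference of -0.51 was larger than the pooled scatter between transcripts, which measures no spread between cultures, and 5.48% of genes had a lower one.

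ERBB2, the co-receptor gene, was nearly level, at 2192 with ATRA+NIC, 2112 with ATRA and 2139.9 in control cells. Its 3 transcripts gave both signs in each comparison. ERBB3, the neuregulin receptor gene, read 1002 with ATRA+NIC, 628 with ATRA and 848 in control cells. It was low on the ATRA array, by 1.35-fold against control, and 1.60-fold higher with ATRA+NIC than with ATRA. All 3 of its transcripts agreed in sign in every comparison. Their differences of 0.55 to 0.79 for ATRA+NIC minus ATRA were larger than the pooled scatter between transcripts. ERBB3 thus ran opposite to HBEGF, AREG and EREG, at a small size.

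ERRFI1, the gene of the receptor inhibitor, shared its order of arrays with AREG. It read 804 with ATRA+NIC, 8886 with ATRA and 1784 in control cells. It was 4.98-fold higher with ATRA than in control cells and 11.05-fold lower with ATRA+NIC than with ATRA. Like AREG it was below control on the ATRA+NIC array, by 2.22-fold. A single transcript reads ERRFI1.

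**Figure D3:**
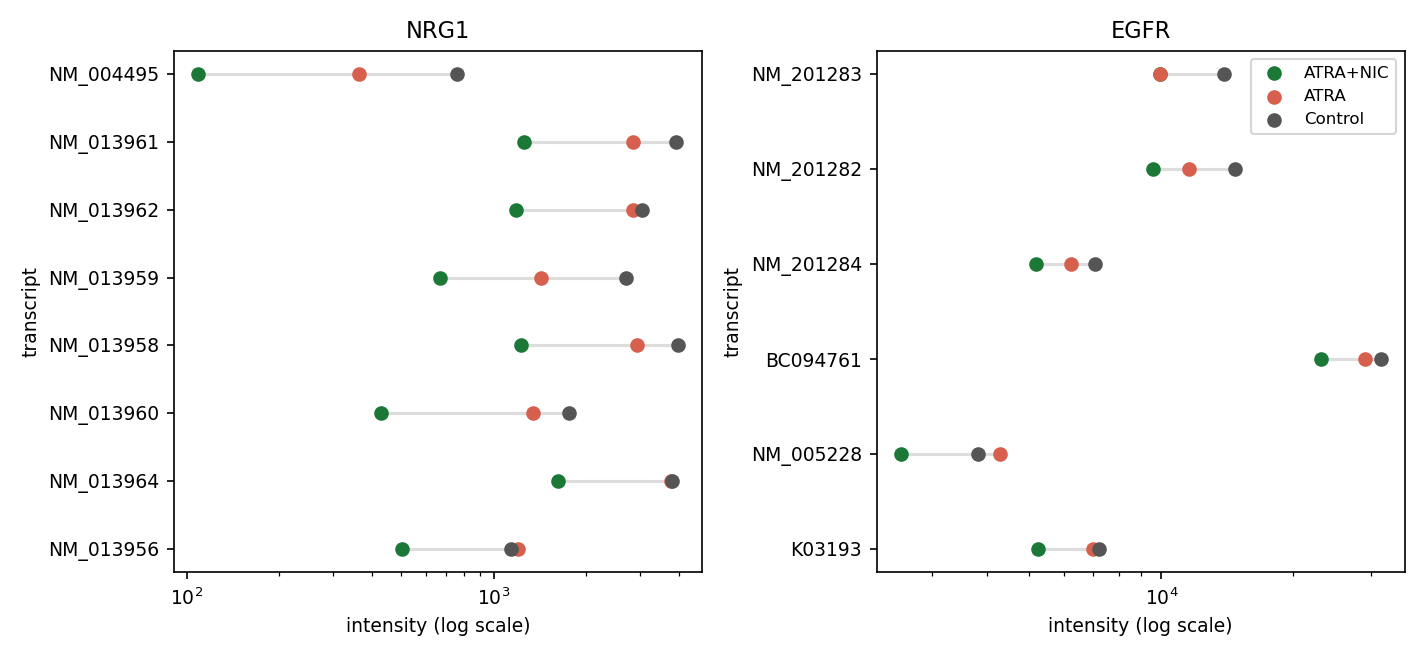
Intensity on a log scale (horizontal axis) of each transcript (vertical axis, ordered by its end on the chromosome) of NRG1 and EGFR on the ATRA+NIC, ATRA and control arrays, 1 point per array. The ATRA+NIC point is the lowest for all 8 NRG1 transcripts and lies below the other points for all 6 EGFR transcripts.

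Counted together, 4 of the 9 genes passing the filter were at least 2-fold higher with ATRA than in control cells and 0 lower, where 3.83% of all genes passing the filter were higher and 2.06% lower. With ATRA+NIC against ATRA, 5 of 9 were at least 2-fold lower and 0 higher, beside 3.74% and 1.35% of all genes. With ATRA+NIC against control, 2 of 9 were lower, NRG1 and ERRFI1, and 0 higher, beside 0.971% and 1.03% of all genes. The median difference of the 9 was 0.57, -1.33 and -0.04 log2 units in this order, and that of all genes passing the filter was -0.04, 0.05 and -0.01. These comparisons share arrays in pairs, so a gene that read high on the ATRA array differs in both comparisons that use it. The genes were chosen with earlier results of these data known, and the counts describe them only.

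**Figure D4:**
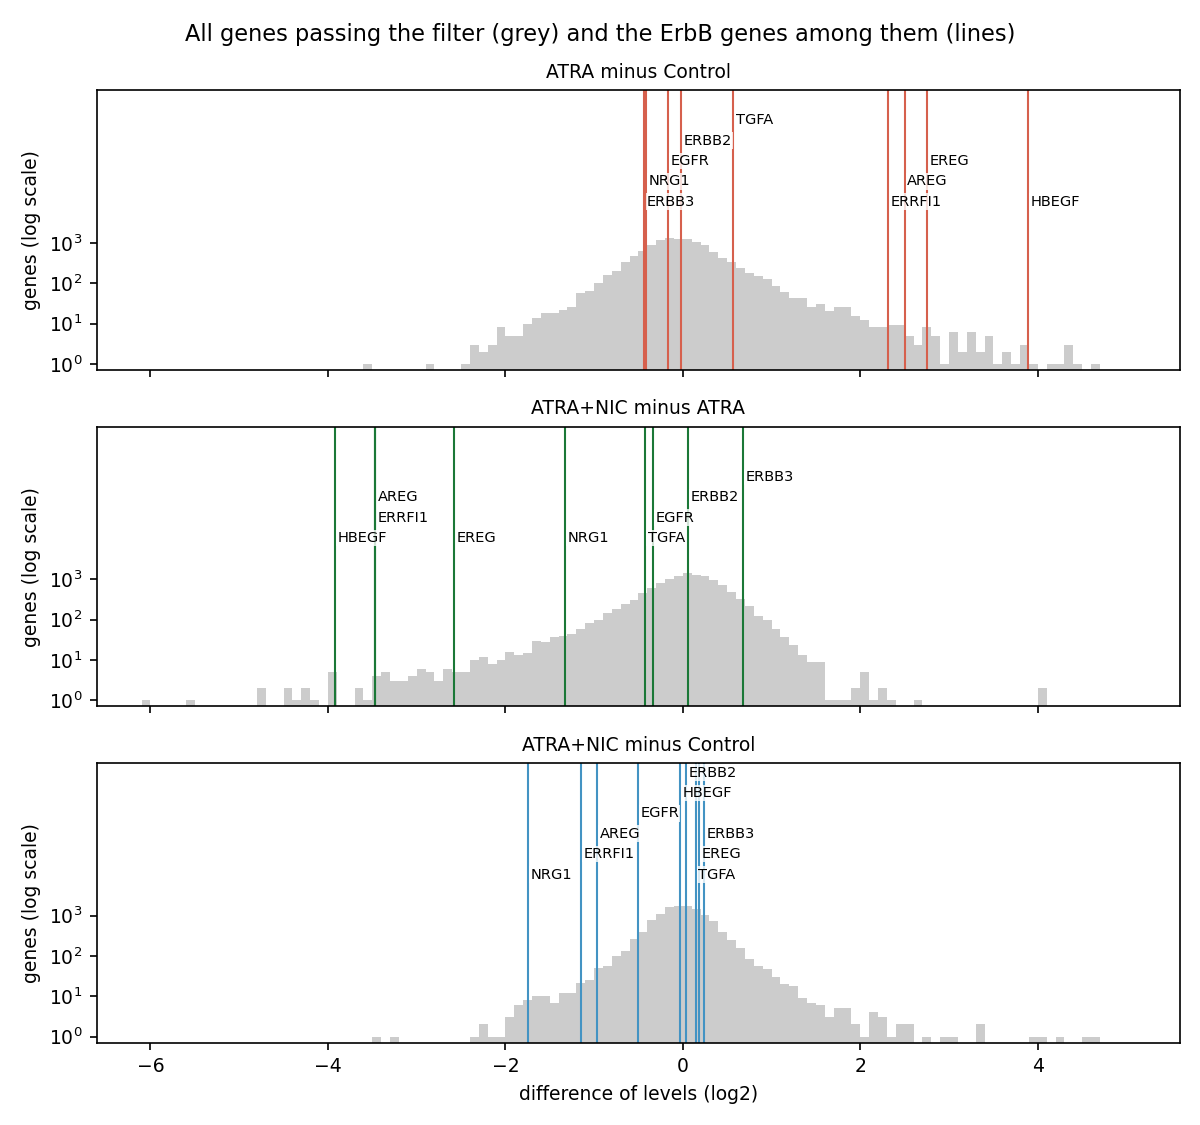
Distribution of the difference of levels (log2, horizontal axis) over the 12467 genes passing the filter (grey bars, number of genes on a log scale), with a line at each of the 9 ErbB genes passing it, in the 3 comparisons. HBEGF, AREG, EREG and ERRFI1 lie in the upper tail for ATRA minus control and in the lower tail for ATRA+NIC minus ATRA, while the receptor genes lie inside 2-fold in each.

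EREG, AREG and BTC are neighbours on chromosome 4, near EPGN, which encodes the ligand epigen. In the hg18 annotation EREG lies at 75449723 to 75473341, AREG at 75529716 to 75539590 and BTC at 75889000 to 75938853. The other genes with transcripts wholly placed within 300 kb of this stretch were CXCL2, MTHFD2L, EPGN, LOC653193 and PARM1. EPGN, between MTHFD2L and EREG, lay near the random probes on all arrays, at 17.6 with ATRA+NIC, 26.9 with ATRA and 21.0 in control cells. MTHFD2L, which encodes a mitochondrial folate enzyme, was also dim, at 23.7, 35.8 and 38.3. Readings this dim do not show whether either gene differed. CXCL2, a neutrophil chemokine gene, was 5.32-fold higher with ATRA than in control cells and 4.16-fold lower with ATRA+NIC than with ATRA. CXCL2, EREG, AREG and LOC653193, which passed the filter, were thus all highest on the ATRA array. EREG and AREG belong to the set described, and LOC653193 may read the RNA of AREG, so CXCL2 is the only further gene. Over all genes passing the filter, 3.83% were at least 2-fold higher with ATRA than in control cells. HBEGF lies elsewhere, on chromosome 5 at 139692611 to 139706358, and ERRFI1 on chromosome 1 at 7994380 to 8008943. TGFA lies on chromosome 2 at 70527923 to 70634466, EGFR on chromosome 7 at 55054207 to 55291783, ERBB2 on chromosome 17 at 35097918 to 35138441, ERBB3 on chromosome 12 at 54760158 to 54783395 and NRG1 on chromosome 8.

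**Figure D5:**
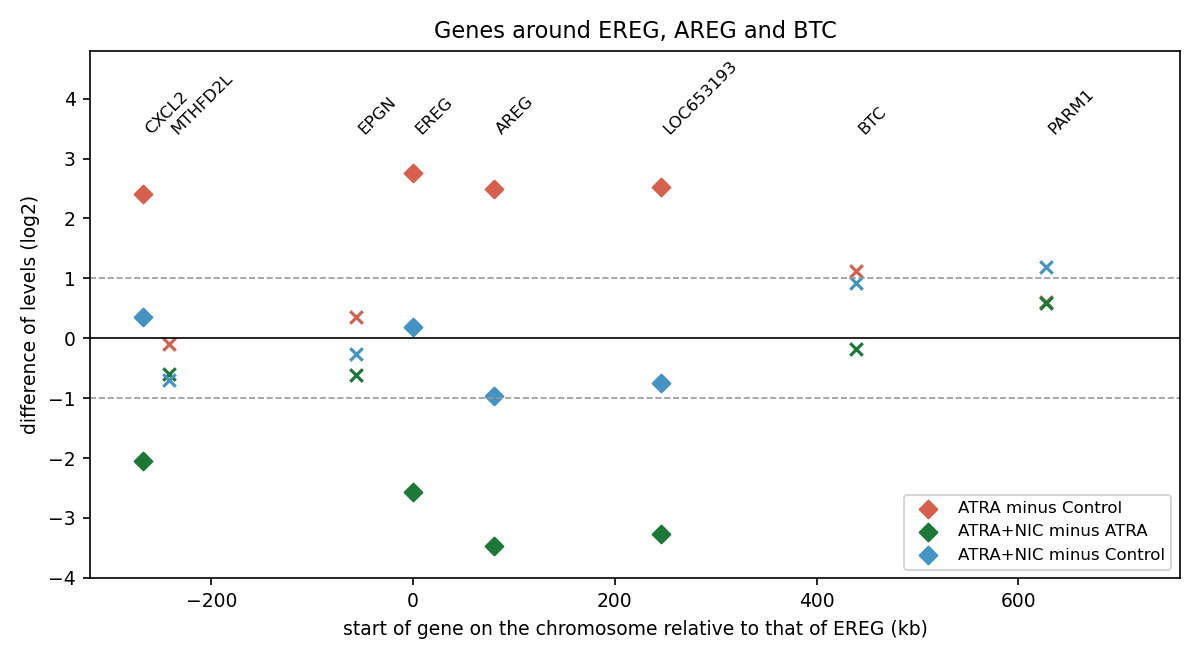
Difference of levels (log2, vertical axis) in the 3 comparisons (colours) against the start of each gene relative to that of EREG in kb (horizontal axis); diamonds passed the filter and crosses did not, and dashed lines mark 2-fold. CXCL2, EREG, AREG and LOC653193 passed the filter and have values above the 2-fold line for ATRA minus control. LOC653193 may read the RNA of AREG and is no separate gene beside it. EPGN and MTHFD2L read under 50 on all arrays.

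The remaining ErbB ligand and receptor genes EGF, EPGN, NRG2, NRG3, NRG4 and ERBB4 were measured and all 6 were under the filter. EGF read 15.4 with ATRA+NIC, 22.5 with ATRA and 23.0 in control cells, and ERBB4 read 18.3, 27.6 and 31.5, both near the random probes. NRG3 read 61.0 with ATRA+NIC, 15.2 with ATRA and 25.9 in control cells, which is at least 1.22-fold higher with ATRA+NIC than with ATRA once values under 50 are set to 50. NRG4 read 183 with ATRA+NIC, 130 with ATRA and 137 in control cells.

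Among 14 genes of ligand shedding and trafficking, 10 passed the filter and none reached 2-fold in any comparison. Of all genes passing the filter, 3.83%, 1.35% and 1.03% were at least 2-fold higher and 2.06%, 3.74% and 0.971% lower. None among 10 genes is near these shares and does not set the list apart. The medians of the 10 were 0.16 for ATRA minus control, 0.05 for ATRA+NIC minus ATRA and -0.04 for ATRA+NIC minus control on the log2 scale. Those of all genes passing the filter were -0.04, 0.05 and -0.01. ADAM17, the main sheddase of HB-EGF, amphiregulin and TGF-alpha, read 1355 with ATRA+NIC, 2107 with ATRA and 1667 in control cells. ADAM8, another metalloproteinase of this family, read 171 with ATRA+NIC, 254 with ATRA and 142 in control cells. Their differences of -0.64 for ATRA+NIC minus ATRA and 0.84 for ATRA minus control were the greatest of these 10 genes in those comparisons.

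Of 30 adaptors and signal transducers downstream of the receptors, all passed the filter, 1 was at least 2-fold higher with ATRA than in control cells and 1 lower, each 3.33% of the list and near the 3.83% and 2.06% of all genes. GRB7, an adaptor that binds ERBB2, read 4016 with ATRA+NIC, 6085 with ATRA and 2331 in control cells, 2.61-fold higher with ATRA than in control cells. VAV2, a signal transducer gene, read 794 with ATRA+NIC, 649 with ATRA and 1434 in control cells, 2.21-fold lower with ATRA than in control cells. None of the 30 reached 2-fold with ATRA+NIC against ATRA, beside 1.35% of all genes higher and 3.74% lower. None did against control either, beside 1.03% and 0.971%. The list medians were -0.07, -0.06 and -0.06 for the 3 comparisons, close to those of all genes.

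Of 30 genes that restrain or turn over ErbB receptors, 26 passed the filter. PHLDA1, which encodes a pleckstrin homology-like domain protein, was 2.07-fold higher with ATRA than in control cells and 3.41-fold lower with ATRA+NIC than with ATRA. CBLB, a ubiquitin ligase gene of the CBL family that marks activated receptors for breakdown, read 764 with ATRA+NIC, 1918 with ATRA and 1083 in control cells, 2.51-fold lower with ATRA+NIC than with ATRA. No other gene of the 26 reached 2-fold in these comparisons. The 1 gene higher with ATRA than in control cells was 3.85% of the 26, near the 3.83% of all genes. The 2 lower with ATRA+NIC than with ATRA were 7.69%, beside 3.74% of all genes, a small number in a short list. PTPRJ, a receptor phosphatase gene under the filter, was at least 1.78-fold higher with ATRA than in control cells. The list median for ATRA+NIC minus ATRA was -0.26, with 19 of 26 lower, beside a median of 0.05 for all genes. LRIG1, an inhibitor of the receptors at the cell surface, differed by 0.14 for ATRA minus control and by -0.11 for ATRA+NIC minus ATRA. PHLDA1 was the one gene of the 26 that, like ERRFI1, reached 2-fold both with ATRA against control and with ATRA+NIC against ATRA.

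Many genes known to follow ERK signalling, the kinase cascade below the receptors, were highest on the ATRA array, as HBEGF, AREG and EREG were. All 34 genes listed as such passed the filter, so it removed none of them. FOS, EGR2 and EGR3 passed only through the ATRA array and HMGA2 only through the control array, each where it was high. Of the 34, 21 were at least 2-fold higher with ATRA than in control cells and 1 lower, beside 3.83% and 2.06% of all genes, with a median of 1.26. With ATRA+NIC against ATRA 23 were lower and 0 higher, beside 3.74% and 1.35% of all genes, with a median of -1.37. With ATRA+NIC against control 5 were lower and 0 higher, beside 0.971% and 1.03% of all genes, with a median of -0.32, or -0.24 with values under 50 set to 50. The 5 were FOSB at 2.09-fold, JUN at 3.05-fold, KLF6 at 2.33-fold, HMGA2 at 3.58-fold and EGR3, which read under 50 on both arrays. With values under 50 set to 50, EGR3 was at least 1.06-fold lower, so its place among the 5 rests on dim readings. Among the early transcription factor genes, the ATRA over control fold was 20.7 for FOS, 10.5 for FOSB, 3.65 for FOSL1, 5.18 for JUN, 2.30 for JUNB and 10.8 for EGR1. It was at least 13.4 for EGR2 and at least 14.3 for EGR3, which read under 50 in control cells, 2.95 for IER2 and 2.20 for KLF10. With ATRA+NIC against ATRA these genes were lower, FOS by 26.4-fold, FOSB by 21.9-fold, FOSL1 by 4.90-fold, JUN by 15.8-fold, JUNB by 1.83-fold and EGR1 by 12.4-fold. EGR2 was at least 13.4-fold lower, EGR3 at least 15.2-fold, IER2 2.48-fold and KLF10 2.29-fold.

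Of the phosphatase and Sprouty genes in this list, 5 reached 2-fold with ATRA against control. The ATRA over control fold was 7.52 for DUSP1, 3.62 for DUSP4 and 8.29 for DUSP5, genes of ERK and MAP kinase phosphatases, and 2.03 for SPRY2 and 5.20 for SPRY4, genes of Sprouty proteins. With ATRA+NIC against ATRA, DUSP1 was 12.5-fold lower, DUSP4 2.68-fold, DUSP5 8.35-fold, SPRY2 1.63-fold and SPRY4 7.07-fold. They differed in where ATRA+NIC lay against control, at 0.44 for DUSP4 and 0.32 for SPRY2 but -0.73 for DUSP1 and -0.44 for SPRY4 on the log2 scale. SPRED1 and SPRED2, genes of further inhibitors of the cascade, differed by 0.21 and 0.02 for ATRA minus control and by -0.57 and -0.12 for ATRA+NIC minus ATRA. The protease gene PLAU was 3.99-fold higher with ATRA than in control cells and 3.22-fold lower with ATRA+NIC than with ATRA, and its receptor gene PLAUR 2.91-fold and 2.83-fold. In the same order LIF, a cytokine gene, gave 3.56-fold and 2.42-fold, EPHA2, an ephrin receptor gene, 2.50-fold and 2.19-fold, and ZFP36, whose product destabilises messenger RNA, 5.61-fold and 6.44-fold. PHLDA1, given above, stands in this list too. KLF6, IER3 and MYC were under 2-fold with ATRA against control, at 1.81, 1.48 and 1.64, and 4.23-fold, 2.13-fold and 2.29-fold lower with ATRA+NIC than with ATRA. HMGA2, a chromatin protein gene, was the lower one with ATRA, by 2.29-fold. DUSP6, the cytoplasmic ERK phosphatase gene, was 1.57-fold higher with ATRA than in control cells and 3.09-fold lower with ATRA+NIC than with ATRA. The list was written with the high readings of several of its genes known, so it is no independent evidence.

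Genes were compared by the distance between pairs of differences, ATRA minus control and ATRA+NIC minus ATRA. Among named genes whose transcripts agreed in sign in both, the 5 closest to HBEGF were IL1RL1, GDF15, SNAI1, EGR1 and NR4A1. They lay at 0.32 to 0.69 log2 units. IL1RL1 encodes the interleukin 33 receptor, GDF15 a stress-induced cytokine, SNAI1 and EGR1 transcription factors and NR4A1 an early-response nuclear receptor. SNAI1 read 147 with ATRA+NIC, 2214 with ATRA and 212 in control cells. The 5 closest to EGFR, chosen without the sign rule, were YAP1, CERS6, KCTD15, FGD6 and SETD3. All lay within 0.02 log2 units, where small differences leave many genes alike. Likeness here rests on 3 arrays and describes the readings alone.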

How the data were processed

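RNA of the 3 cultures was measured on single-colour NimbleGen arrays labelled with Cy3, per the labels. The authors deposited intensity values on a linear scale, which are RMA gene calls per the file headers and names, summarised over 3 probes for each transcript and annotated on build hg18. Their software was not stated in the labels. A standard error column was left out, since its numbers are undefined.

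Log2 intensities were averaged over the transcripts of a gene with Python 3.11.15, numpy 2.4.6 and pandas 2.3.3. Symbols were updated by Entrez number through the RefSeq table of GRCh38.p14, in which 20230 of 23619 numbers matched, and 2086 transcripts without a gene name were left out. The filter was a log2 level of 7.95. With 1 array per group there was no test and no p-value. Where a dim side lay under 50, values under 50 were set to 50 and the fold is given as "at least". The code that applies the fold rule was tested on simulated data, which does not measure the error of the rule on real arrays.

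All 10 genes are described. Other list genes are named when at least 2-fold different with ATRA against control or ATRA+NIC against ATRA, or, in lists with none, as the 2 with the greatest difference. Genes near HBEGF and EGFR were the 5 closest by Euclidean distance among those passing the filter, without locus, clone or reading-frame names. For HBEGF, but not for EGFR, genes whose transcripts disagreed in sign in either difference were also left out. LOC653193, NRG4, LRIG1, EGF and ERBB4 and the chromosome 4 neighbours were added after values were seen. Protein sequences were not used here. The members and lists were chosen with earlier results of these data known. Alternatives covered the summary of transcripts, an offset, the floor, the filter, centring, the series' value table and the fold rule.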

Additional observations from a re-analysis of the deposited data

How the results depend on the processing

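The counts of ErbB genes at 2-fold were recomputed under 10 alternatives, 60 values in all, of which 58 stayed within 1.5 times the main count. Both others came from the fold rule: at 1.5-fold 1 gene, ERBB3, was higher with ATRA+NIC than with ATRA, against 0 at 2-fold, and at 3-fold 1 gene, NRG1, was lower with ATRA+NIC than in control cells, against 2 at 2-fold. Without the filter 5 of 10 genes were higher with ATRA than in control cells, BTC being the fifth. Of 180 values of single genes, 168 moved by less than the pooled SD between transcripts of a gene, 12 by more, and no difference of at least 2-fold changed sign. Many of these values could not move, so both tallies overstate stability. No transcript of the 10 genes read under 50, so the floor left them unchanged, and the series' value table holds the same intensities. HBEGF, AREG, EREG and ERRFI1 have 1 transcript each, so the summary of transcripts could not alter them. TGFA for ATRA minus control was 0.02 with the brightest transcript, and BTC was 0.66 with 100 added before log2. NRG1 was -0.01 for ATRA minus control and -1.23 for ATRA+NIC minus control with the brightest transcript. ERBB2 for ATRA+NIC minus control was -0.24 with the median of transcripts and 0.36 with the brightest, and TGFA was -0.12 with the brightest. Over all genes, the counts higher and lower were 477 and 257 for ATRA minus control, 168 and 466 for ATRA+NIC minus ATRA, and 128 and 121 for ATRA+NIC minus control. In the same order they were 997, 759, 728, 973, 548 and 491 without the filter, 234, 74, 48, 221, 44 and 48 with the 75th percentile as filter, and 1234, 1121, 982, 1181, 494 and 483 at 1.5-fold. At 3-fold they were 193, 58, 18, 183, 38 and 36, and with 100 added 353, 130, 75, 334, 75 and 69. No paired analysis was possible because each group holds 1 array, and for the same reason no array could be left out. The series' value table holds the same intensities, within a relative tolerance of 1e-05, for the 31275 transcripts at 50 or above on all arrays.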

Other observations

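The EGFR transcripts fell into separate ranges by where they end, a split made after their values were seen. NM_201282, NM_201283 and NM_201284, which encode short forms without the kinase domain, end between 55192138 and 55206232 on chromosome 7 of hg18. Their differences for ATRA minus control ran between -0.48 and -0.19 on the log2 scale, and those for ATRA+NIC minus ATRA ran between -0.27 and -0.0037. The 3 transcripts that end later, between 55238262 and 55291783, differed by -0.12 to 0.17 for ATRA minus control and by -0.75 to -0.34 for ATRA+NIC minus ATRA. For ATRA+NIC minus control the ranges overlapped, at -0.62 to -0.45 for the short forms and -0.59 to -0.45 for the others. The gap between the mean values of both sets was close to the pooled scatter between transcripts of a gene, and no replicate array bears on it.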
